A study of Mus musculus with 26 samples.

Results

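The cyclins and cyclin-dependent kinases that drive G1, S phase and entry into mitosis were examined on 26 Affymetrix arrays of immortalized mouse embryonic fibroblasts (MEFs). The list held 10 genes, Ccnd1, Ccnd2, Ccnd3, Ccne1, Ccne2, Ccna2, Ccnb1, Cdk2, Cdk4 and Cdk6, chosen by name. All probe sets annotated to a single one of these genes were taken, which gave 26 probe sets for 9 of the 10 genes, among 18193 genes with such a probe set on the array. Ccnb1 had no probe set that met this rule and is not analysed here. Of the 26 probe sets, 24 passed the filter on low values, and the 2 that did not were 1 of the 3 Ccnd3 probe sets (1438805_at, mean signal 31.5) and 1 of the 2 Cdk2 probe sets (1447617_at, mean signal 9.09). Where a gene has several probe sets, the one with the highest mean stands for the gene below. Names ending in _x_at mark probe sets with probes shared with other transcripts, and the probe sets that stand for Ccne1 and Cdk4 are of this kind.

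The 3 parental lines labelled WA, WB and WC each carried a pBabe-human c-myc vector, a pBabe-human v-src vector or the empty pBabe-puro vector, named here as labelled. Each of the 9 groups had 3 arrays, except WB with v-src, where 2 arrays were analysed and a replicate 1 is not analysed here. pBabe vectors express their insert from the retroviral long terminal repeat. Each parental line is a single immortalized line, and the labels do not say how it was immortalized or whether infected cells were pooled or cloned. The series used the c-myc and v-src cells to test an expression signature of anchorage-independent growth, and the comparisons below ask how the cell cycle genes differed with each oncogene over the 3 lines.

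D-type cyclins bind Cdk4 and Cdk6, and the complexes phosphorylate the retinoblastoma protein, which frees E2F factors to transcribe the genes of S phase, among them Ccne1, Ccne2 and Ccna2. Cyclin E with Cdk2 starts DNA replication, and cyclin A with Cdk2 carries it on. In fibroblasts Ccnd1 is induced by mitogens through Ras and ERK signalling, and the Myc protein is known to bind CACGTG sites (E-boxes) and to activate Cdk4 and Ccnd2 in other settings. v-Src is the constitutively active tyrosine kinase of Rous sarcoma virus.

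Promoter windows, from 250 bases before to 50 bases after the start site, are printed for the 3 kinase genes, because their windows hold motifs of the Myc and E2F families and because Cdk4 rose with c-myc, Cdk6 fell with v-src and Cdk2 was lower with v-src than with c-myc in the results below. Sequences are from RefSeq (GRCm38.p6), 5′ to 3′ along the gene's strand, with the motif in capitals. In the Cdk4 window (chr10:127063285-127063584, plus strand) and the Cdk6 window (chr5:3343643-3343942, plus strand) the capitals mark CACGTG, and in the Cdk2 window (chr10:128705002-128705301, minus strand) they mark the reverse complement of TTTCCCGC.
Cdk4: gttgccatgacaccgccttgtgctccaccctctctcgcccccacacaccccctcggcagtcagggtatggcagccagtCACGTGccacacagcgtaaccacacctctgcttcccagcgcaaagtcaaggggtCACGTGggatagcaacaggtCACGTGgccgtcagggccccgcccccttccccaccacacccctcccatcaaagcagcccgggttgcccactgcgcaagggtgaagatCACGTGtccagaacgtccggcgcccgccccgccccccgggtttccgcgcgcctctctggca
Cdk6: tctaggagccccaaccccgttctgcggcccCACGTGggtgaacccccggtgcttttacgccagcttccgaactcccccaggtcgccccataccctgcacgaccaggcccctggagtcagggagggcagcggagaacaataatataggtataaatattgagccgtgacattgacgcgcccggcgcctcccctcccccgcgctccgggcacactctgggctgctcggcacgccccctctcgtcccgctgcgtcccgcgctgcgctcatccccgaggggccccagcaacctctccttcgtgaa
Cdk2: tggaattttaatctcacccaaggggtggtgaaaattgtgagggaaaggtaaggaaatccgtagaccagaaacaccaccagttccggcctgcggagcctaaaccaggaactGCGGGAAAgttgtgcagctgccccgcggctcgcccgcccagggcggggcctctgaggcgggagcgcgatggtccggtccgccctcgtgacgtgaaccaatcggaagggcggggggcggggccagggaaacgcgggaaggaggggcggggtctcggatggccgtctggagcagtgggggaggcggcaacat
CACGTG occurred 4 times in the Cdk4 window, at -172, -118, -98 and -11 from the start site, and once in the Cdk6 window, at -220. The windows of Ccnd3, Ccne1, Ccnb1 and Cdk2 had no CACGTG, though Ccne1 also rose with c-myc in the results below. No window was found for Ccnd1, Ccnd2, Ccne2 and Ccna2, so these were not searched. Of all 32851 windows of this length, 7.15% held CACGTG at least once and 8 (0.0244%) held it 4 or more times. TTTCCCGC was found once in the Cdk2 window, at -140 on the minus strand of the window, and in 1.07% of all windows. TTTGGCGC (0.514% of all windows), TGANTCA (7.81%), TGACGTCA (1.79%) and TTTGAA (17.9%) were searched on both strands and had no match in the 7 windows found for Ccnd3, Ccne1, Ccnb1, Cdk2, Cdk4 and Cdk6. A match describes the letters of the window and says nothing of binding.

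The deposited values are Affymetrix MAS5 signals on a linear scale, scaled so that the trimmed mean of every array is 500, and the array medians lay between 89.0 and 134.6. Signal differences are given as log2 of the signal plus 23, per parental line or as the mean over lines, with their standard error (SE) and a Benjamini-Hochberg adjusted p from limma over 27022 probe sets. A gene is called where the adjusted p is below 0.05. The correlation of an array with others of its group was lowest for WC c-myc replicate 1 (mean r 0.959) and, among the empty-vector arrays, for WA replicate 3 (mean r 0.964). Intervals below are 95% intervals of a single difference, not adjusted for the number of probe sets. All of the 12 calls of the 9 genes over the lines held without these 2 arrays and without any single array.

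Across the 3 lines the cells with c-myc had less Ccnd1 and Ccnd2 RNA and more Ccne1 and Cdk4 RNA than cells with the empty vector, and the cells with v-src had less Ccnd2 and Cdk6. Of the 9 genes, 2 were higher and 2 lower with c-myc, where 17.1% of all probe sets were called in this comparison (9.12% higher and 8.03% lower). With v-src 0 were higher and 2 lower (12.6% of all probe sets called, 6.16% higher and 6.47% lower). At unadjusted p under 0.05, limma gave 5 of the 9 genes for c-myc, beside 32.5% of all probe sets, and 5 for v-src, beside 29.3%. The median difference of the 9 genes was 0.29 for c-myc and -0.01 for v-src, beside medians over all probe sets of 0.07 and 0.02. Both comparisons use the same empty-vector arrays. In bulk RNA, fewer cells in a cell cycle phase and less RNA per cell cannot be told apart.

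**Figure D1:**
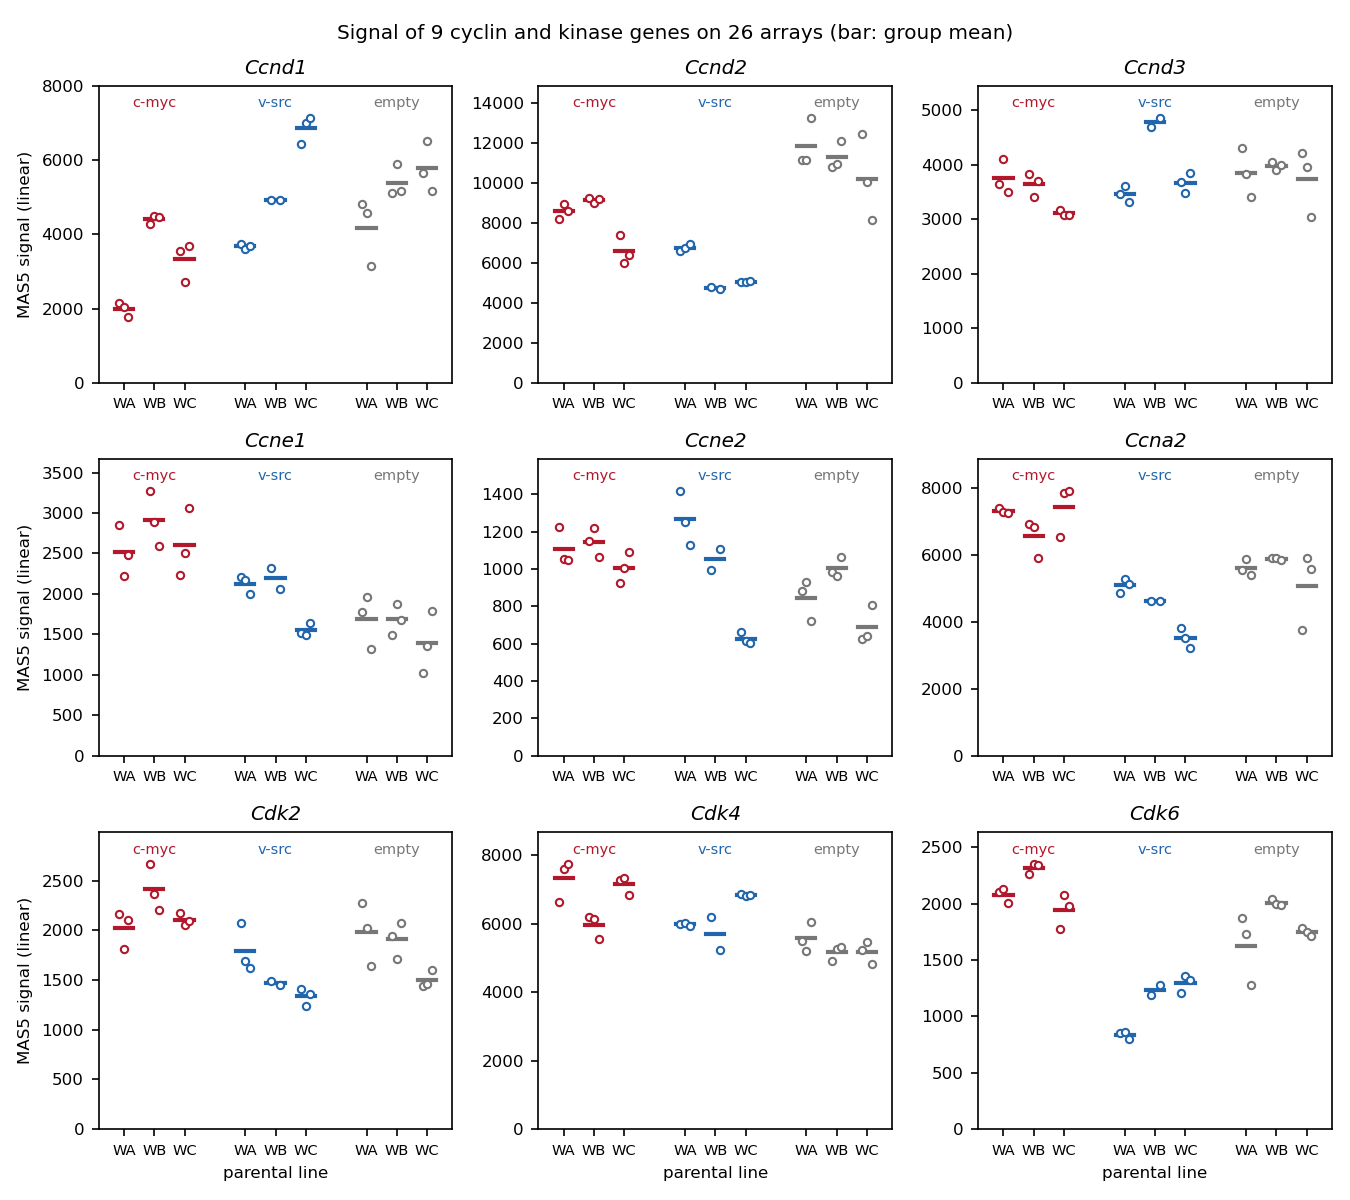
MAS5 signal (linear axis from 0) of the probe set that stands for each of the 9 genes on every array, by vector and parental line. Circles are arrays and bars are group means. Ccnd2 sat between 4699 and 6906 on the v-src arrays, below all empty-vector arrays. Cdk6 sat between 798 and 1354 on the v-src arrays and between 1274 and 2037 on the empty-vector arrays (median 1786), with overlap across lines.

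Ccnd1 encodes cyclin D1, the mitogen-induced activator of Cdk4 and Cdk6. Its signal with c-myc was 2139, 2040.1 and 1762 in WA, 4295, 4487 and 4483 in WB, and 3567, 2723 and 3695 in WC. With v-src it was 3732, 3616 and 3692 in WA, 4936 and 4940.2 in WB, and 6449.9, 6999 and 7151 in WC. With the empty vector it was 4826, 4575 and 3136 in WA, 5119.8, 5899 and 5173 in WB, and 5664, 6533 and 5172 in WC. On the probe set that stands for Ccnd1, all c-myc arrays lay below all empty-vector arrays of the same line in every line. Its v-src arrays overlapped the empty-vector arrays in WA and WC and lay below them in WB. The 3 line means averaged 3243 ± 1223 with c-myc and 5162 ± 1605 with v-src, against 5122 ± 839.9 with the empty vector (SD, n = 3 lines each). Over the lines Ccnd1 was lower with c-myc, by a log2 difference of -0.71 (SE 0.17, adjusted p = 0.0240), and the v-src difference was -0.01 (SE 0.17, adjusted p = 0.975), with a 95% interval of -0.39 to 0.37. The other Ccnd1 probe sets differed by -0.57 (1417420_at, adjusted p = 0.0489) and -0.60 (1417419_at, adjusted p = 0.0626) with c-myc. The call on 1417420_at was lost under 23 of 38 alternatives, 16 of them single arrays left out. On 1417420_at and 1417419_at the c-myc arrays overlapped the empty-vector arrays in WB and lay below them in WA and WC. Their v-src arrays overlapped the empty-vector arrays in WA and WB and lay above them in WC. With v-src these probe sets differed by 0.13 and 0.18 over the lines, and neither was called. The Ccnd1 call for c-myc was lost without an intensity trend (adjusted p = 0.0522), without WA (0.169) and without WC (0.121).

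The Ccnd1 difference with c-myc was not the same size in the 3 lines. The difference within a line was -1.05 in WA (adjusted p = 6.77e-07), -0.28 in WB (adjusted p = 0.117) and -0.80 in WC (adjusted p = 2.89e-05), and a limma F test found that these differ between lines for Ccnd1 (adjusted p = 0.0145), where 11.9% of all probe sets were called in that test. It was the one gene of the 9 called there by the probe set that stands for it. For v-src the differences of Ccnd1 were -0.16 in WA (adjusted p = 0.403), -0.12 in WB (adjusted p = 0.605) and 0.25 in WC (adjusted p = 0.169), with an F test adjusted p of 0.244, and of 0.0229 without WA empty replicate 3.

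Ccnd2 encodes cyclin D2, a second activator of Cdk4 and Cdk6. Its signal with c-myc was 8199, 8927 and 8600.4 in WA, 9222, 8988 and 9191 in WB, and 7370.4, 5982 and 6383 in WC. In v-src cells it was 6589, 6728 and 6906 in WA, 4775 and 4699 in WB, and 5053, 5009 and 5078 in WC. With the empty vector it was 11127, 11151 and 13240.4 in WA, 10793, 10922 and 12064 in WB, and 12447, 10012 and 8135 in WC. On the probe set that stands for Ccnd2, all c-myc and v-src arrays lay below all empty-vector arrays of their line in each line. Of all probe sets, 7.46% showed that pattern with c-myc and 7.79% with v-src. By the probe sets that stand for them, Ccnd1 also showed it with c-myc and Cdk6 with v-src. On such probe sets 0 of the 9 genes had all v-src arrays above the empty-vector arrays in each line (6.76% of all probe sets). The 3 line means averaged 8096 ± 1343 with c-myc and 5508 ± 1079 with v-src, against 11099 ± 832 with the empty vector (SD, n = 3 lines each). Ccnd2 fell over the lines by 0.46 (SE 0.11, adjusted p = 0.0303) on the log2 scale with c-myc. In v-src cells it fell by 1.01 (SE 0.11, adjusted p = 0.00217), and the 95% interval of the v-src difference was -1.28 to -0.75. All 7 Ccnd2 probe sets were called lower with v-src, by differences of -1.31 to -0.93, and 6 of the 7 with c-myc, by -0.80 to -0.41 among those called. The probe sets share 1 gene and are not replicates. With c-myc the arrays overlapped the empty-vector arrays in WC on 1416122_at, 1448229_s_at and 1455956_x_at, and in every line on 1416124_at. With v-src all 7 probe sets lay below the empty-vector arrays in each line.

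Within the lines the Ccnd2 difference with c-myc was -0.46 in WA (adjusted p = 0.00124), -0.30 in WB (adjusted p = 0.0395) and -0.61 in WC (adjusted p = 6.04e-05). In v-src cells it was -0.81 in WA (adjusted p = 2.56e-06), -1.24 in WB (adjusted p = 2.01e-08) and -0.99 in WC (adjusted p = 8.49e-08). The F test between lines was not passed on this probe set (adjusted p = 0.332 for c-myc and 0.166 for v-src), while 2 other Ccnd2 probe sets were called for v-src, with the larger falls in WB. The c-myc call in WB was lost without any one of the 6 WB arrays with c-myc or the empty vector (adjusted p up to 0.158), with no filter and without an intensity trend. Over the lines the v-src call of Ccnd2 held in each of the 40 alternatives. The c-myc call was lost with no filter (adjusted p = 0.0526), without an intensity trend (0.0795), without WA (0.116) and without WC (0.191).

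Ccnd3, the third D-type cyclin, had a smaller range. Its signal lay between 3073 and 4106 on the c-myc arrays (median 3499), between 3309 and 4861 on the v-src arrays (median 3645) and between 3049 and 4298 on the empty-vector arrays (median 3958). In WB all c-myc arrays of Ccnd3 lay below and all v-src arrays above the empty-vector arrays, and the arrays overlapped in WA and WC. Over the lines the Ccnd3 difference was -0.14 (SE 0.11, adjusted p = 0.416) for c-myc, with an interval of -0.38 to 0.11, and 0.03 (SE 0.11, adjusted p = 0.871) for v-src, with an interval of -0.21 to 0.28.

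Cdk4, a kinase bound by D-type cyclins, had a higher mean with c-myc in every line, though the WB difference was not called. The Cdk4 signal with c-myc was 6641, 7591 and 7736 in WA, 6187, 6147 and 5556 in WB, and 7275, 7326 and 6844 in WC. In v-src cells it was 5991, 6026 and 5922 in WA, 6189.9 and 5219 in WB, and 6876, 6794 and 6832 in WC. With the empty vector it was 5487, 5189 and 6045 in WA, 4922, 5257 and 5332 in WB, and 5223, 5463 and 4825 in WC. On the probe set that stands for Cdk4, all c-myc arrays were higher than the empty-vector arrays of their own line in 3 of 3 lines. The probe sets that stand for Ccne1 and Ccna2 also showed this pattern, seen for 8.08% of all probe sets. The 3 line means averaged 6812 ± 739.7 with c-myc and 6173 ± 589 with v-src, against 5305 ± 233 with the empty vector (SD, n = 3 lines each). Over the lines Cdk4 rose by 0.35 (SE 0.08, adjusted p = 0.0247) with c-myc, a 1.28-fold change. Within the lines the Cdk4 difference with c-myc was 0.39 in WA (adjusted p = 0.000289), 0.20 in WB (adjusted p = 0.0575) and 0.47 in WC (adjusted p = 4.25e-05). The other Cdk4 probe sets gave 0.25 (adjusted p = 0.0753) and 0.32 (adjusted p = 0.0557), and their c-myc arrays overlapped the empty-vector arrays in WB. With v-src the 3 Cdk4 probe sets gave 0.21, 0.21 and 0.24 (adjusted p = 0.131, 0.138 and 0.140). The Cdk4 call for c-myc was lost without an intensity trend (adjusted p = 0.0842), without WA (0.126), without WB (0.0542) and without WC (0.157).

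Cdk6, the other kinase partner of the D-type cyclins, was lower with v-src. Its signal with v-src was 849, 857 and 798 in WA, 1191 and 1277 in WB, and 1210.5, 1354 and 1324 in WC. With c-myc it was 2099.5, 2131 and 2003 in WA, 2265, 2349 and 2339 in WB, and 1778, 2075 and 1979.6 in WC. With the empty vector it was 1869.8, 1730.2 and 1274 in WA, 2037, 1997 and 1985 in WB, and 1786, 1745 and 1708 in WC. On the probe set that stands for Cdk6, every v-src array was below every empty-vector array of its line. Its c-myc arrays were higher than the empty-vector arrays in WA and WB and overlapped them in WC. The 3 line means averaged 2113 ± 189 with c-myc and 1122 ± 251 with v-src, against 1792 ± 195 with the empty vector (SD, n = 3 lines each). Cdk6 fell in v-src cells by 0.68 (SE 0.14, adjusted p = 0.0172) on the log2 scale, 1.60-fold lower. The difference was -0.92 in WA (adjusted p = 1.30e-07), -0.69 in WB (adjusted p = 3.78e-05) and -0.43 in WC (adjusted p = 0.00183). The other Cdk6 probe sets gave -0.42 (adjusted p = 0.0924) and -0.34 (adjusted p = 0.217), and the call was lost with the mean of the probe sets (adjusted p = 0.0507), without WA (0.0766) and without WB (0.115). On 1455287_at the v-src arrays overlapped the empty-vector arrays in WC, and on 1460291_at in WA and WC. With c-myc the Cdk6 difference over the lines was 0.24 (SE 0.14, adjusted p = 0.262). For the v-src difference of Cdk6 the F test between lines gave an adjusted p of 0.0512, and of 0.000505 without WA empty replicate 3, with falls of 1.09, 0.69 and 0.42 in WA, WB and WC.

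Ccne1 and Ccne2 encode the E-type cyclins that activate Cdk2 at the start of S phase. The Ccne1 signal with c-myc was 2853, 2225 and 2482 in WA, 3272, 2889.5 and 2597 in WB, and 2229, 2506 and 3066 in WC. The v-src arrays gave 2212, 2168 and 1999 in WA, 2317 and 2067 in WB, and 1522, 1492 and 1644 in WC. With the empty vector it was 1777, 1967 and 1325 in WA, 1489, 1882 and 1683 in WB, and 1024, 1362 and 1786 in WC. All Ccne1 arrays with c-myc were above all empty-vector arrays of the same line in each line, and those with v-src were above them in WA and WB and overlapped them in WC. The 3 line means averaged 2679.9 ± 211 with c-myc and 1957 ± 352 with v-src, against 1588 ± 171 with the empty vector (SD, n = 3 lines each). Ccne1 rose by 0.76 (SE 0.11, adjusted p = 0.00537) with c-myc, 1.69-fold, and its other probe set by 0.66 (SE 0.13, adjusted p = 0.0131). The differences within the lines were 0.58 in WA (adjusted p = 0.00649), 0.79 in WB (adjusted p = 0.000803) and 0.92 in WC (adjusted p = 8.94e-05). For v-src the difference was 0.31 (SE 0.11, adjusted p = 0.110), with an interval of 0.05 to 0.56. With c-myc the WA difference was 0.42 and not called without WA empty replicate 3 (adjusted p = 0.0613). The c-myc call of the other Ccne1 probe set was lost without WA (adjusted p = 0.0653), WB (0.0701) or WC (0.0814). On the probe set that stands for it the Ccne1 call for c-myc was lost without WC (adjusted p = 0.0534).

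Ccne2 signal lay between 924 and 1225 on the c-myc arrays (median 1063), between 606 and 1418 on the v-src arrays (median 1051) and between 628 and 1064 on the empty-vector arrays (median 883). The v-src groups of Ccne2 were spread most, with 1266 ± 145 in WA, 1051 ± 76.2 in WB (n = 2) and 626 ± 30 in WC (SD, n = 3). Over the lines the Ccne2 difference was 0.37 (SE 0.17, adjusted p = 0.170) for c-myc and 0.17 (SE 0.17, adjusted p = 0.550) for v-src. With v-src the difference was 0.57 in WA (adjusted p = 0.000504), 0.06 in WB (adjusted p = 0.786) and -0.13 in WC (adjusted p = 0.462), and it differed between lines in the F test (adjusted p = 0.0117), where 10.3% of all probe sets were called.

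Cdk2 signal, for the kinase that cyclins E and A activate, lay between 1808 and 2665 on the c-myc arrays (median 2161), between 1238 and 2070.0 on the v-src arrays (median 1468) and between 1438 and 2278 on the empty-vector arrays (median 1715). The c-myc arrays overlapped the empty-vector arrays in WA and lay above them in WB and WC, and the v-src arrays overlapped the empty-vector arrays in WA and lay below them in WB and WC. The Cdk2 difference over the lines was 0.29 (SE 0.12, adjusted p = 0.154) for c-myc and -0.22 (SE 0.12, adjusted p = 0.271) for v-src. Neither passed the test over the lines. Within the lines the Cdk2 difference was 0.04 in WA (adjusted p = 0.832), 0.33 in WB (adjusted p = 0.0335) and 0.49 in WC (adjusted p = 0.00145) with c-myc, and -0.14 in WA (adjusted p = 0.406), -0.37 in WB (adjusted p = 0.0343) and -0.16 in WC (adjusted p = 0.327) with v-src. In WB the c-myc call of Cdk2 was lost under 6 of 36 alternatives, among them without WB empty replicates 1 or 2 or WB c-myc replicates 1 or 2 (adjusted p up to 0.160), and the v-src call under 7, among them without WB empty replicates 1 or 3 or either WB v-src array (adjusted p up to 0.157).

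Ccna2 encodes cyclin A2, which works in S phase and G2. The Ccna2 signal with c-myc was 7408, 7267 and 7243 in WA, 6931, 6822 and 5919 in WB, and 6543, 7847 and 7906 in WC. The v-src arrays gave 4871, 5283 and 5142 in WA, 4609 and 4634 in WB, and 3822, 3515 and 3229 in WC. With the empty vector it was 5549.7, 5864 and 5412 in WA, 5907, 5905 and 5845 in WB, and 3749, 5896 and 5589 in WC. On the probe set that stands for Ccna2, all c-myc arrays lay above all empty-vector arrays of their line in 3 of 3 lines. Its v-src arrays lay below the empty-vector arrays in WA and WB and overlapped them in WC. The 3 line means averaged 7098 ± 473 with c-myc and 4414 ± 808 with v-src, against 5524 ± 410.4 with the empty vector (SD, n = 3 lines each). Over the lines the difference was 0.37 (SE 0.12, adjusted p = 0.0659) for c-myc and -0.33 (SE 0.12, adjusted p = 0.104) for v-src, so neither was called. The other Ccna2 probe set, 1417910_at, gave 0.12 (adjusted p = 0.589) for c-myc and was lower in v-src cells by 0.63 (SE 0.13, adjusted p = 0.0214). That call was lost without WA (adjusted p = 0.109), WB (0.0507) or WC (0.0603). On 1417910_at the c-myc arrays lay above the empty-vector arrays in WA, below them in WB and overlapped them in WC. Its v-src arrays lay below the empty-vector arrays in each of the 3 lines. With the mean of its probe sets Ccna2 fell with v-src by 0.48 (adjusted p = 0.0369).

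**Figure D2:**
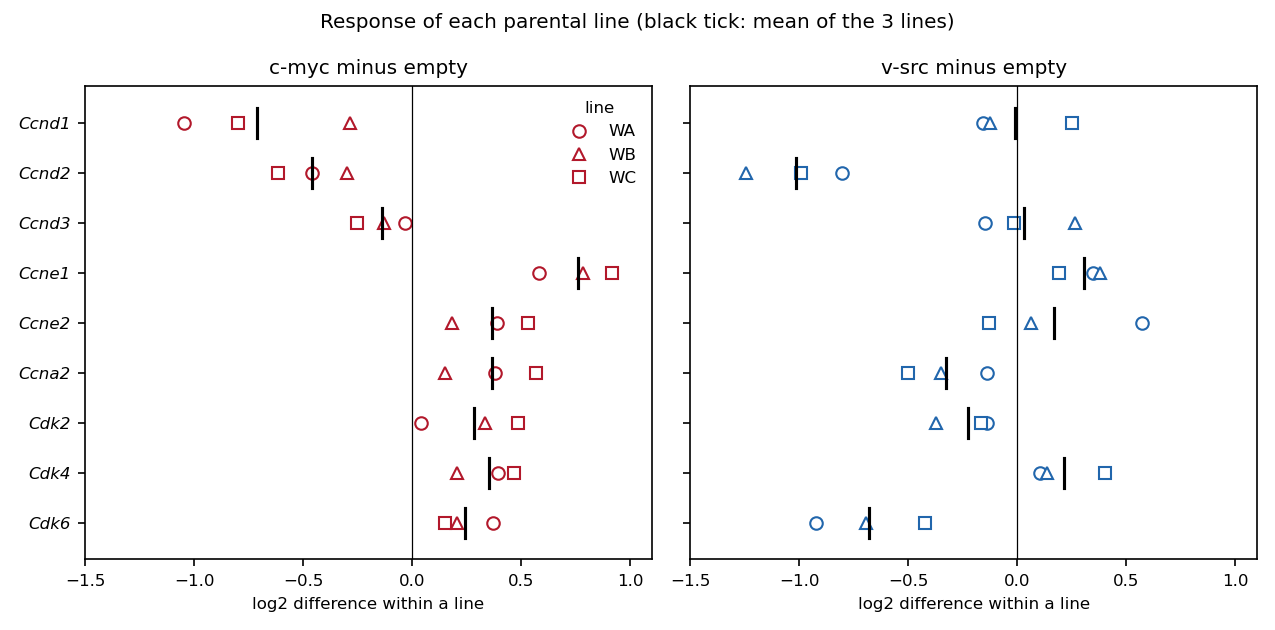
Log2 difference of each gene within each parental line, c-myc minus empty (left) and v-src minus empty (right). Symbols are the lines and black ticks the mean of the 3 lines; the Ccnd1 difference with c-myc ranged from -1.05 in WA to -0.28 in WB, and Ccnd2 and Cdk6 were below 0 in all 3 lines with v-src.

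Within a single line the fit used the arrays themselves, with 1 estimate of the spread shared by all 26. With c-myc the count was 7 of 9 in WA (5 up, 2 down, beside 32.3% of all probe sets called, 17.3% higher and 15% lower), 3 of 9 in WB (2 up, 1 down, beside 22.5%, 11.1% higher and 11.4% lower) and 8 of 9 in WC (5 up, 3 down, beside 31.1%, 16% higher and 15.1% lower). With v-src it was 3 of 9 in WA (1 up, 2 down, beside 23.8%, 11.6% higher and 12.2% lower), 3 of 9 in WB (0 up, 3 down, beside 21.9%, 10.4% higher and 11.5% lower) and 4 of 9 in WC (1 up, 3 down, beside 24.6%, 11.6% higher and 13.1% lower). In WC with c-myc, Ccnd1, Ccnd2 and Ccnd3 fell and Ccne1, Ccne2, Ccna2, Cdk2 and Cdk4 rose. Ccnd3 lay just below the threshold there, and its call was lost under 26 of 36 alternatives. In WC with v-src, Cdk4 rose by 0.40 (SE 0.08, adjusted p = 0.000281) and Ccna2 fell by 0.50 (SE 0.11, adjusted p = 0.00172). The c-myc count in WA was 4 without WA empty replicate 3. The c-myc count in WB was 6 without WA empty replicate 3, and 1 without WB empty replicate 1 or 2 or WB c-myc replicate 1 or 2. The v-src count in WB was 5 without WC empty replicate 3.

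Set directly against each other, v-src cells had more Ccnd1 and less Ccnd2, Ccne1, Ccna2, Cdk2 and Cdk6 than c-myc cells. Over the lines 1 of the 9 genes was higher and 5 were lower with v-src, where 23.1% of all probe sets were called (10.2% higher and 12.9% lower), and the median of the 9 genes was -0.46, beside -0.04 over all probe sets. Ccnd1 was higher with v-src by 0.70 (SE 0.17, adjusted p = 0.0189), and each of its 3 probe sets was called. Cdk6 was lower by 0.92 (SE 0.14, adjusted p = 0.00323), Ccna2 by 0.70 (SE 0.12, adjusted p = 0.00510), and Ccnd2 by 0.55 (SE 0.11, adjusted p = 0.0109). Cdk2 was lower by 0.51 (SE 0.12, adjusted p = 0.0210) and Ccne1 by 0.46 (SE 0.11, adjusted p = 0.0209). Cdk4 (difference -0.14, interval -0.33 to 0.05), Ccne2 (-0.20, interval -0.58 to 0.18) and Ccnd3 (0.17, interval -0.08 to 0.42) did not pass. Of the probe sets, 4 of 7 were called for Ccnd2 and 2 of 3 for Cdk6. Without WC the calls of Ccnd1 (adjusted p = 0.153), Ccne1 (0.175) and Cdk2 (0.145) were lost, as were Ccnd1 without WA (0.102) and Ccne1 (0.0926) and Cdk2 (0.144) without WB.

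**Figure D3:**
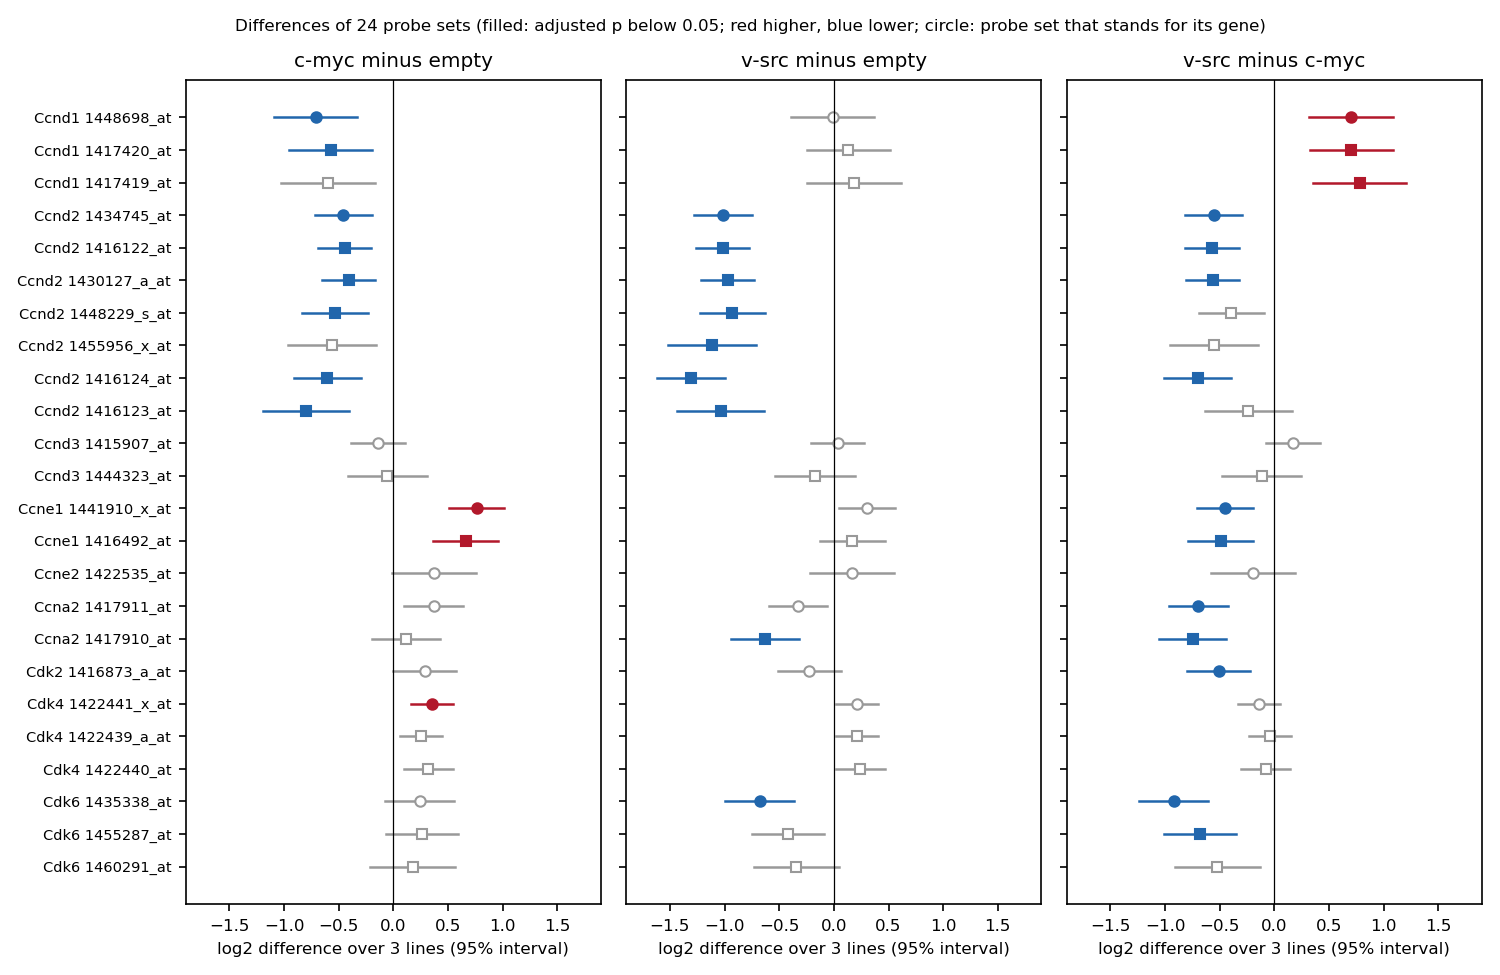
Log2 differences over the 3 lines with 95% intervals for the 24 probe sets that passed the filter, in the 3 comparisons. Filled symbols passed the test; all 7 Ccnd2 probe sets were lower with v-src than with the empty vector, and all 3 Ccnd1 probe sets were higher with v-src than with c-myc.

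The lines also differed with the empty vector alone. The limma F test called 4 of the 9 genes, where 38.6% of all probe sets were called: Ccne2 (adjusted p = 0.00205), Ccnd1 (0.00748), Cdk2 (0.0128) and Cdk6 (0.0319). Ccnd1 averaged 4179 ± 912 in WA, 5397 ± 435 in WB and 5789.8 ± 689 in WC (SD, n = 3 arrays each), and without WA empty replicate 3 its call was lost (adjusted p = 0.106). The Cdk6 call was lost without WA empty replicate 3 or any of the 3 WB empty arrays (adjusted p up to 0.0925), and the Cdk2 call without WC empty replicate 1 (0.0597) or 2 (0.0537). Ccne2 averaged 845 ± 109, 1004 ± 53.5 and 692 ± 100.1 in the same order. Of the 9 genes, Ccnd1 spanned the widest range of group means, 3.47-fold from WC v-src to WA c-myc, and Cdk4 the narrowest, 1.42-fold. The order of the Ccnd1 group means, high to low, was WC v-src, WC empty, WB empty, WB v-src, WB c-myc, WA empty, WA v-src, WC c-myc and WA c-myc. Arrays of neighbouring groups overlapped in 5 of these 8 pairs, and lay apart between WB v-src and WB empty, between WB v-src and WB c-myc, and between WC c-myc and WA c-myc. The order for Ccnd2 was WA empty, WB empty, WC empty, WB c-myc, WA c-myc, WA v-src, WC c-myc, WC v-src and WB v-src, with overlap in 4 of 8 pairs. The order for Cdk6 was WB c-myc, WA c-myc, WB empty, WC c-myc, WC empty, WA empty, WC v-src, WB v-src and WA v-src, with overlap in 6 of 8 pairs. Cdk6 averaged 834 ± 32.1 in WA v-src, below the arrays of every other group. Ccnd3 was highest in WB v-src and lowest in WC c-myc, 1.54-fold apart, with overlap in 6 of 8 pairs. Ccne1 was highest in WB c-myc and lowest in WC empty, 2.10-fold apart, with overlap in 7 of 8 pairs. Ccne2 was highest in WA v-src and lowest in WC v-src, 2.02-fold apart, with overlap in 7 of 8 pairs. Ccna2 was highest in WC c-myc and lowest in WC v-src, 2.11-fold apart, with overlap in 4 of 8 pairs. Cdk2 was highest in WB c-myc and lowest in WC v-src, 1.81-fold apart, with overlap in 5 of 8 pairs. Cdk4 was highest in WA c-myc and lowest in WC empty, 1.42-fold apart, with overlap in 7 of 8 pairs.

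The genes most like the 3 genes that varied most over the 9 group averages were found by Pearson's r of the log2 averages, given as a description over 9 points that share parental lines and vectors. Ccnd1 was most like Elf1 (r = 0.976), Ifi27 (0.971) and Gpr108 (0.961). Ccnd2 was most like Myh9 (0.980), Ywhab (0.971) and Ttc28 (0.968). Cdk6 was most like Marchf5 (0.972), Gmds (0.963) and Tial1 (0.961).

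Of 14 other cyclins tested, 2 rose and 1 fell with c-myc (median 0.23) and 3 rose and 1 fell with v-src (median 0.11), beside 17.1% and 12.6% of all probe sets called. Ccng2, an atypical cyclin, rose with v-src by 1.27 (SE 0.16, adjusted p = 0.00289), with a mean signal of 2002 with v-src and 827 with the empty vector. Ccng1 fell with both (-0.54 with c-myc and -0.68 with v-src). Ccnt1, a subunit of the transcription elongation factor P-TEFb, rose with both (0.50 and 0.48). Ccnk, the partner of the transcriptional kinases Cdk12 and Cdk13, rose with c-myc by 0.84 (SE 0.14, adjusted p = 0.00782), and Ccnl2 rose with v-src (0.37), and missed the threshold when any of these arrays was left out: WA empty replicate 3, WB empty replicate 3, WC empty replicates 2 or 3, WC c-myc replicate 1 (adjusted p up to 0.104). With v-src against c-myc, Ccng2 was higher by 1.72 and Ccnk lower by 0.70. Of 16 other cyclin-dependent kinases, limma called 0 with c-myc (6 at unadjusted p under 0.05, beside 32.5% of all probe sets). With v-src 3 rose, Cdk20 by 1.51 (SE 0.33, adjusted p = 0.0224), Cdk17 by 0.54 and Cdk9, the P-TEFb kinase, by 0.39. Cdk9 was not called without WA empty replicate 2 (adjusted p = 0.0547), without an intensity trend, or without WA, WB or WC. With the mean of its probe sets the v-src difference of Cdk9 was 0.16 and not called (adjusted p = 0.369). With v-src against c-myc 4 were higher, with the largest differences for Cdk20 (1.71) and Cdk5 (0.77), and 2 were lower, Cdk18 (-0.53) and the mitotic kinase Cdk1 (-0.37). Of all probe sets, 10.2% were called higher and 12.9% lower with v-src against c-myc. The Cdk18 call was lost on leaving out 1 array among WA empty replicates 1 or 3, WB empty replicate 2, WC empty replicate 1, WA c-myc replicates 1 or 3, WB c-myc replicate 3, WC c-myc replicate 2, WA v-src replicate 1, WB v-src replicate 2, WC v-src replicate 3 (adjusted p up to 0.0682), and the Cdk1 call without WA empty replicate 2, WC empty replicates 2 or 3 (adjusted p up to 0.0598).

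Of 8 inhibitors of cyclin-dependent kinases tested, 0 rose and 3 fell with c-myc (median -0.39, beside 8.03% of all probe sets called lower), Cdkn2b, the inhibitor p15 of Cdk4 and Cdk6, by 1.2 (SE 0.13, adjusted p = 0.00297), Cdkn2d, which blocks the same kinases, by 0.83 (SE 0.20, adjusted p = 0.0267), and Cdkn3, a phosphatase that acts on Cdk2, by 0.44. With v-src 2 rose and 1 fell (median 0.10, beside 6.16% of all probe sets called higher and 6.47% lower): Cdkn1a, the inhibitor p21, rose by 1.72 (SE 0.40, adjusted p = 0.0281), Cdkn2c, the inhibitor p18, by 0.46 (SE 0.11, adjusted p = 0.0279), and Cdkn3 fell by 0.52. The Cdkn3 call for c-myc did not hold when one of these was omitted: WA empty replicate 2, WB empty replicate 2, WC empty replicate 3 (adjusted p up to 0.0606). For v-src it did not hold on omitting WC c-myc replicate 1 (adjusted p = 0.0536). Cdkn1a differed by 2.42 in WA, 2.24 in WB and 0.49 in WC with v-src, and its call was lost without WA or WB (adjusted p up to 0.174). With v-src against c-myc 5 of 8 inhibitors were higher (median 0.77, all probe sets -0.04, of which 10.2% were called higher), Cdkn1a by 1.94, Cdkn2b by 1.06, Cdkn2d by 0.96, Cdkn1c by 0.88 and Cdkn2c by 0.67, and 0 were lower. The Cdkn1c call was lost without WC c-myc replicates 2 or 3, WC v-src replicate 3 (adjusted p up to 0.106).

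Of 9 activators and partners of the kinases (median 0.18 with c-myc and -0.21 with v-src), where 17.1% of all probe sets were called with c-myc and 12.6% with v-src, 2 rose with c-myc, the phosphatase gene Cdc25a by 0.71 (SE 0.11, adjusted p = 0.00738) and the kinase chaperone gene Cdc37 by 0.39 (SE 0.06, adjusted p = 0.00551), and 1 fell with v-src, Cdc25c by 0.57 (SE 0.13, adjusted p = 0.0267), a call lost without WB empty replicate 2 (adjusted p = 0.0561). Against c-myc, v-src gave 5 lower, led by Cdc25c (-0.56) and Cdc25a (-0.53), and 0 higher, where 12.9% of all probe sets were lower, and this Cdc25c difference missed the threshold on omitting WC empty replicate 1 (adjusted p = 0.0593), on omitting any 1 line, and with the groups as a random block. Of 13 genes of cyclin degradation, 3 rose and 1 fell with c-myc: Skp2, which marks the inhibitor p27 for breakdown, rose by 0.76 (SE 0.13, adjusted p = 0.00776), Skp1 rose by 0.43, and Fbxo4 fell by 1.06 (SE 0.16, adjusted p = 0.00546). The third rise was Cdc20, by 0.33, and it fell in v-src cells by 0.48 (SE 0.08, adjusted p = 0.00877), the 1 fall of the list with v-src (0 rose). The list median was 0.21 with c-myc and -0.05 with v-src. Between v-src and c-myc cells Fbxo4 was higher by 0.89, and 3 were lower, with the largest differences for Cdc20 (-0.81) and Skp2 (-0.49). Of 12 genes of the retinoblastoma and E2F family 2 rose with c-myc (median 0.24) and 2 with v-src (median -0.10), and 0 fell, beside the same 17.1% and 12.6% of all probe sets called. E2f5 rose by 1.85 (SE 0.20, adjusted p = 0.00290) with c-myc and 1.63 (SE 0.20, adjusted p = 0.00270) with v-src on its brightest probe set. The remaining 2 E2f5 probe sets gave -0.10 and -0.10 with c-myc and 0.04 and -0.09 with v-src. As the mean of its probe sets E2f5 was higher by 0.55 (adjusted p = 0.0193) with c-myc and 0.53 (adjusted p = 0.0282) with v-src. E2f4 rose by 0.57 with c-myc, and E2f8, a repressor of E2F targets, by 0.94 with v-src. The E2f5 call for v-src did not hold on omitting WC empty replicate 2 (adjusted p = 0.0606). Set against c-myc, in v-src cells E2f8 was higher by 0.68, and 3 were lower, with the largest differences for E2f7 (-0.78) and E2f3 (-0.40). The E2f3 call was lost without any one of 14 of the 26 arrays (adjusted p up to 0.0692).

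Of 23 S phase genes tested 12 rose with c-myc and 0 fell, with a median of 0.40, beside 0.07 over all probe sets and 9.12% of all probe sets called higher. Cdc6, needed to license replication origins, rose by 0.96 (SE 0.17, adjusted p = 0.00876) and Ung, a uracil glycosylase, by 0.94 (SE 0.15, adjusted p = 0.00619). With v-src 0 rose and 1 fell, Rrm1, a subunit of ribonucleotide reductase, by 0.65 (SE 0.10, adjusted p = 0.00553), with 8 of 23 at unadjusted p under 0.05 in limma, beside 29.3% of all probe sets, and a median of 0.01. Of 20 mitotic genes 2 rose with c-myc, Mybl2 by 0.97 (SE 0.17, adjusted p = 0.00835) and Cenpa by 0.35, and 3 fell with v-src, among them Ndc80 by 0.57 and Mki67, a marker of cycling cells, by 0.56 (medians 0.20 with c-myc and -0.27 with v-src). Of all probe sets, 9.12% were called higher with c-myc and 6.47% lower with v-src. The Ndc80 call was lost on leaving out 1 array among WA empty replicate 2, WB empty replicate 3, WC empty replicate 2, WC c-myc replicates 1 or 3, WA v-src replicate 2, WB v-src replicates 2 or 3, WC v-src replicates 1 or 2 (adjusted p up to 0.126), and the Mki67 call without WC empty replicate 3, WB v-src replicate 2 (adjusted p up to 0.0625). Of the calls on the cell cycle and fibroblast lists, 27 of 34 with c-myc, 19 of 26 with v-src and 44 of 61 with v-src against c-myc were lost on leaving out at least 1 of the 3 lines. The number of S phase genes higher with c-myc was 4 without WA and 2 without WC. With v-src against c-myc 16 of 23 S phase genes and 10 of 20 mitotic genes were lower and 0 were higher (medians -0.56 and -0.44), where 12.9% of all probe sets were lower, Ung by 1.37, Mcm5 by 1.15, Mybl2 by 1.07 and Kif11 by 0.78.

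**Figure D4:**
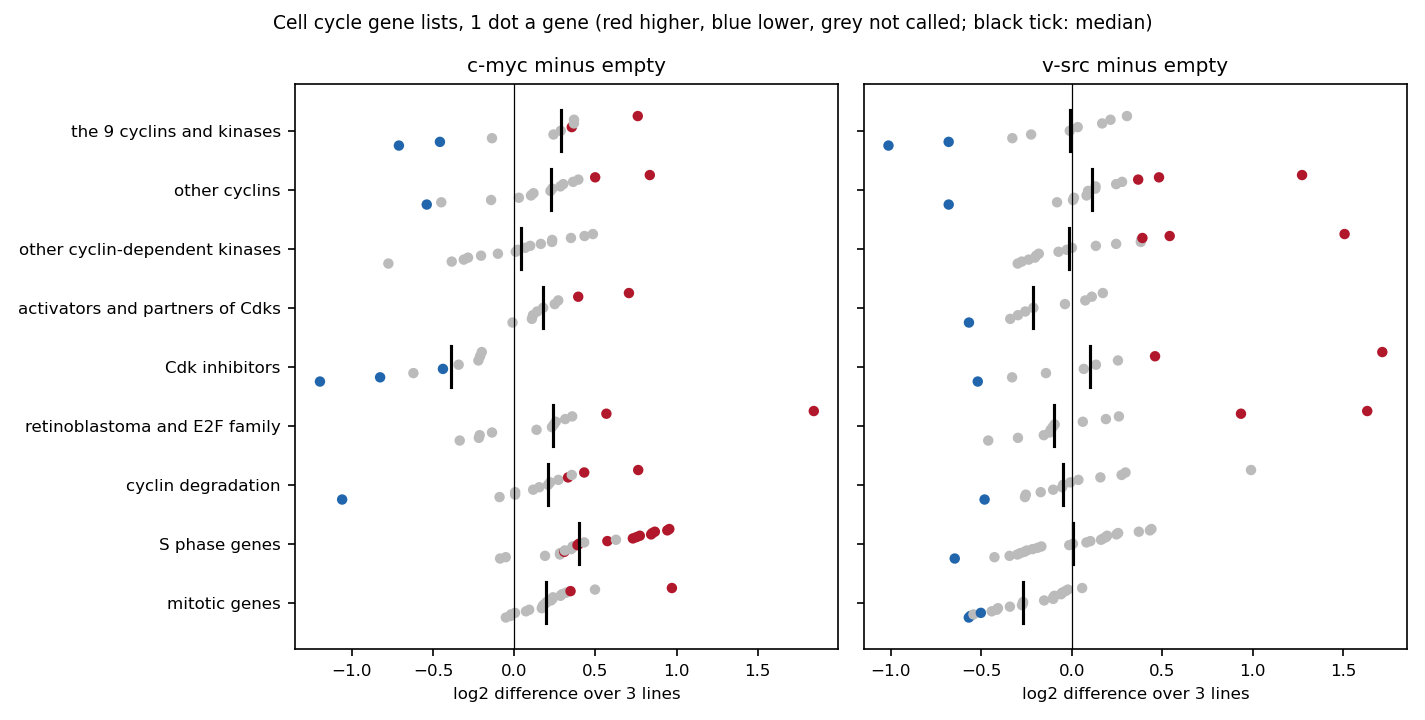
Log2 difference over the 3 lines of each tested gene of 9 cell cycle lists, c-myc minus empty (left) and v-src minus empty (right). Red and blue dots passed the test and black ticks are list medians; S phase genes had a median of 0.40 with c-myc and 0.01 with v-src.

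The labelled cell type was checked on markers of fibroblasts and of other cells. Fibroblast markers (13 genes) summed to 107920.0 to 126921 in the 3 lines with c-myc, 111623 to 126899 with v-src and 144299 to 174548 with the empty vector, and Vim was at 18973 or more in every group. Of the 13 fibroblast markers, 6 fell with c-myc, beside 8.03% of all probe sets called lower. With v-src 7 fell and 1 rose, beside 6.47% of all probe sets called lower and 6.16% higher. The part of these markers in the cyclin results was not tested. The largest falls with c-myc were in Dcn (-2.80), a matrix proteoglycan, and Pdgfra (-2.72), and with v-src in Postn (-2.61) and Pdgfrb (-1.87), while Dcn rose with v-src (3.34). Macrophage and blood markers (8 genes) summed to 1049 to 1343 with c-myc, 1194 to 1259 with v-src and 1001 to 1180 with the empty vector, and endothelial markers (6 genes) to at most 550.3. Epithelial markers (7 genes) summed to 1252 to 2723 with c-myc, 2173 to 4449 with v-src and 1472 to 2332 with the empty vector. Of these markers Ptprc (at most 56.8), Cdh1 (at most 105), Pecam1 (at most 35.4) and Vwf (at most 13.8) were low in every group. Others were higher, among them Csf1r (397 to 639), Kdr (193 to 296), Lyz2 (119 to 233) and Krt8 (112 to 281). Epcam reached 492 to 3818. Of the macrophage, epithelial and endothelial lists 5, 6 and 3 genes passed the filter and were tested. None was called by limma over the lines (0, 1 and 0 at unadjusted p under 0.05 with c-myc and 1, 1 and 0 with v-src). Without WB 1 epithelial gene was called higher in each comparison over the lines. Leaving out single arrays gave at most 1 macrophage gene called higher with v-src.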

How the data were processed

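The authors deposited MAS5 signal intensity values on a linear scale for 45101 probe sets and 26 arrays; MAS5 is named per the submitters' processing notes, and RNA came from cells lysed in the dish, per the labels' protocols. The trimmed mean was 500 on every array, so a difference is relative to the array's trimmed mean. Group and line come from the titles; a description that names other material was not used. Nothing says whether replicates are separate cultures. P-values within the lines and of the F tests therefore measure only the spread between arrays, and the number of arrays limits their precision. P-values over the lines measure how far the vector difference varied between lines, and the number of lines limits their precision.

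Of the probe sets, 34958 had 1 gene symbol, 932 several and 9211 none here, from GEO's platform annotation, and 34754 matched a RefSeq gene. Values were transformed to log2(signal + 23), where 23 is the 20th percentile of all values, and probe sets with a mean above the 40th percentile (27022 of 45037 non-control probe sets) were tested. Comparisons over the lines used limma 3.58.1 (R 4.3.3) on 9 averages on terms for line and vector with an intensity trend (degrees of freedom 4 residual, 4.3 prior); comparisons within lines used 26 arrays (17 and 6.3). P-values were adjusted over all tested probe sets (Benjamini-Hochberg), and the script was tested on simulated data. Alternatives changed the normalization, pseudocount, filter, trend, probe set rule, replicate block, and left out arrays and lines. The members and lists were chosen with earlier results of these data known. Named are all members, of each list the called genes with the 2 largest rises and falls, any called cyclin or inhibitor, and the 3 genes most like the 3 most variable members; the c-myc rise of Cdc20 and the E2f5 probe sets were chosen after their values were seen.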

Additional observations from a re-analysis of the deposited data

Results flagged for a closer look

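The difference from the empty vector varied between the 3 lines by a limma F test for 6 probe sets of the cyclins, at the adjusted p given for each. They are 3 of 24 probe sets for c-myc and 3 of 24 for v-src, close to the 11.9% and 10.3% of all probe sets called in these tests. In each sentence the log2 differences are for WA, WB and WC in that order. For Ccnd1 with c-myc 2 of the 3 probe sets were called. They gave -1.05, -0.28 and -0.80 (1448698_at, adjusted p = 0.0145) and -0.77, -0.11 and -0.84 (1417420_at, adjusted p = 0.00600), and in both WB had the difference nearest 0. The remaining Ccnd1 probe set, 1417419_at, gave -0.81, -0.23 and -0.75 and was not called. For Ccna2 with c-myc 1417910_at gave 0.23, -0.32 and 0.44 (adjusted p = 0.00733), lower in WB and higher in WA and WC, while 1417911_at gave 0.38, 0.15 and 0.57 and an adjusted p of 0.198. For Ccnd2 with v-src 1448229_s_at gave -0.70, -1.33 and -0.76 (adjusted p = 0.0460) and 1455956_x_at gave -0.90, -1.67 and -0.77 (adjusted p = 0.0141), with the largest fall in WB. For Ccne2 with v-src 1422535_at gave 0.57, 0.06 and -0.13 (adjusted p = 0.0117), with the highest value in WA. WB with v-src has 2 arrays.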

How the results depend on the processing

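Of 5703 gene values recomputed under 40 alternatives, 143 lost a call, 99 gained one and 6 reversed (the last reversal below is of a marker gene). The other 5455 kept their side of the threshold. They kept their direction too, except for 28 uncalled values within 1 SE of 0, whose sign changed and which were not counted as reversed. The 12 calls of the 9 genes over the lines held without each of the 26 single arrays, and 8 were lost under another alternative. Counts of the 9 genes called are as follows. For c-myc over the lines (4) the count was 1 without an intensity trend, 1 without WA, 0 without WC (limma, 2 lines) and 7 with the groups as a random block. For v-src over the lines (2) it was 1 without WA, 1 without WB and 4 with the random block. For v-src against c-myc (6) it was 3 without WC. Leaving out single arrays gave counts of 4 to 5, 2 and 6 in these 3 comparisons. For c-myc in WA (7) single arrays gave 4 to 7. For c-myc in WB (3) the count was 1 with no filter, 1 without a trend, 1 to 6 without single arrays and 6 without WA empty replicate 3 and WC c-myc replicate 1 together, a setting chosen after seeing the data. For v-src in WB (3) it was 5 with quantile normalization, 5 with the mean of the probe sets and 2 to 5 without single arrays. For genes whose c-myc difference varied between lines (1) it was 2 with the mean of the probe sets, 1 to 2 without single arrays and 2 without both arrays. For v-src (1) it was 3 with quantile normalization, 2 with the 60th percentile filter, 2 with 1 probe set per gene, 2 with the replicate block, 1 to 3 without single arrays and 3 without both arrays. For lines differing with the empty vector (4) single arrays gave 2 to 5. The values that reversed were Ccne2 for v-src without WA (-0.0332), Ccnd3 (1444323_at) for v-src without WC (0.0238), Ccne2 for v-src against c-myc without WC (0.0315), Ccnd3 (0.0360) and Ccna2 (-0.0851) for c-myc in WB with the mean of the probe sets, Ccne1 for v-src in WC without WC empty replicate 1 (single arrays gave -0.0074 to 0.387), and Vim for v-src against c-myc with quantile normalization (0.0301). The share of all probe sets called for c-myc, v-src and v-src against c-myc over the lines was 7.94%, 6.21% and 12.3% with no filter, and 3.26%, 5.54% and 12% without WA, 8.97%, 3.73% and 13.6% without WB, and 2.63%, 4.32% and 9.05% without WC, where fewer samples entered the fit. It was 26.7% for c-myc with the 60th percentile filter and 29.4% and 24.1% for c-myc and v-src with the random block. With no filter it was 18.5%, 12.5% and 18.0% for c-myc and 13.6%, 12.6% and 14.5% for v-src in WA, WB and WC, and 6.41%, 5.83% and 23.2% in the tests between lines. For v-src in WB it was 12.7% without WB v-src replicate 2, and for the tests between lines 18.8% (c-myc) and 15.8% (v-src) with the 60th percentile filter. The cause of the other changes was not tested. Replicate numbers were not taken to pair arrays: 25 same-number pairs correlated at -0.141 to 0.200, 5 of them over 0.1, and 8 of 26 arrays correlated best with an array of their own number. With the replicate number as a block the counts over the lines were 4, 2 and 6, as without it, and in v-src in WB 2, where Cdk2 was lost (adjusted p = 0.0521). Signals near background limit the 2 probe sets left out by the filter.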
